A study of Drosophila melanogaster with 8 samples.

Results

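Cytochromes P450 are heme enzymes that insert an oxygen atom into small hydrophobic substrates, with electrons passed on from NADPH by a reductase or, in mitochondria, by a ferredoxin. In Drosophila, members of the Cyp4 family are known mainly for the oxidation of fatty acids, members of Cyp6 and Cyp9 for the detoxification of plant compounds and insecticides, and members of Cyp12 as mitochondrial enzymes. Other members make or break down the molting hormone ecdysone. The larval midgut, Malpighian tubules and fat body are the tissues best known for them.

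The P450 features were the rows of the count tables whose FlyBase identifier has a symbol made of Cyp, a family number, letters and a gene number. A feature is 1 gene identifier of the tables. There were 84 of these, 2 of them pseudogenes, and asRNA:CR43787 was added as the antisense RNA that lies opposite Cyp9c1, which gave 85 members among 17445 features. The symbols Cyp1 and Cyp40 also start with Cyp and a number, but these genes are named for cyclophilins and were kept apart, with 32 and 5 reads over all libraries. By family number, 22 features belonged to Cyp4, 24 to Cyp6, 6 to Cyp9, 7 to Cyp12 and 25 to other families.

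RNA was measured in whole larvae in the middle of the second instar, after 60 hours of growth at 25 °C, with 25 larvae pooled in each sample. Larvae labeled w[1118]; Ldh[16/17] carried the Ldh alleles 16 and 17 in combination and are called Ldh mutants, whereas those labeled w[1118]; Ldh[precise] carried a precise excision at Ldh and are called controls. Each group had 4 libraries (replicates 1, 2, 3 and 6 of the mutants and 1, 2, 5 and 6 of the controls), and both groups shared the w[1118] background. The study's text describes heterozygous controls for its RNA-seq, and the labels were followed here. The labels leave unsaid whether the libraries of a genotype go back to separate cultures. The p-values therefore cover only the spread among these libraries, and that spread may be technical.

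Between 371700 and 560865 reads per library were assigned to a gene. This was 1.24% to 1.62% of all counts of a library, with the counts assigned to no gene included. The difference in this depth between the genotypes was within their spread (two-sided exact permutation test, p = 0.543). For Ldh itself, each mutant library held 0 reads, while the controls held 4, 3, 5 and 1. Of 34 marker genes of 7 larval tissues, 33 had reads, but the 6 fat body markers summed to 0 to 9 reads per library, with Fbp1 at 0, the 6 midgut markers to 3 to 12, the 4 cuticle markers to 4 to 13 and the 6 Malpighian tubule markers to 8 to 25. Those of body wall muscle summed to 550 to 1059 reads and those of the nervous system to 848 to 1148. Low counts were not limited to tissue markers, since eEF2, a translation factor gene used by every cell (chosen after its values were seen), had 4 to 17 reads per library. The presence of a tissue was therefore not judged from these sums. The strand setting of the counting is not given in the sources used here. A read of a P450 gene therefore cannot be told apart by the labels from one of a gene on its other strand, and every value below belongs to a feature, not to an mRNA. In pooled whole larvae, fewer cells of a type and less RNA per cell cannot be told apart either.

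Of the members tested, only the antisense feature was called different between the genotypes (adjusted p under 0.05). Like the other members, it was chosen with earlier results of these data known. asRNA:CR43787 (FBgn0264328; BDGP6, 2R, 24630901 to 24632932, minus strand) had 2177, 2577, 3034 and 2437 reads in the mutants and 1277, 1109, 1892 and 1030 in the controls. All 4 mutant libraries lay above all 4 controls once scaled to the library. In CPM, the read count scaled to a common library size with TMM factors, the level was 5516 ± 496 in the mutants and 2947 ± 339 in the controls (SD, n = 4 each), a rise of 1.88-fold (95% interval 1.61 to 2.19). On the log2 scale this was 0.91 (SE 0.10), with a p of 0.000102 in the quasi-likelihood test of edgeR after Benjamini-Hochberg adjustment. Among all features, 3.17% of the 2589 tested were called at an adjusted p under 0.05, and 1.54% were called higher in mutants.

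Of the 1743 exonic bases of Cyp9c1 (FBgn0015040; 2R, 24631063 to 24632923, plus strand), 1711 lie opposite asRNA:CR43787, yet the 2 features were counted at different orders. Cyp9c1 had 1 read in mutant replicate 6, 1 read in control replicate 2 and none in the other 6 libraries, against 15533 reads of the antisense feature over all 8. Cyp9c1 belongs to the Cyp9 family, and no change of its own feature could be seen with 2 reads (ratio of mutant to control reads 0.932, exact 95% interval 0.0119 to 73.2, counting error only). The antisense feature took 0.511% to 0.607% of gene-assigned reads in the mutants and 0.266% to 0.337% in the controls. All 84 P450 features together held 0.437% to 0.504% of the reads in mutants and 0.470% to 0.502% in controls. The antisense feature thus lay above their summed share in each mutant library and below it in each control. The strand setting is not given, and whether these reads came from antisense RNA or from Cyp9c1 mRNA was not tested. Over all placed features, the median was 102 reads with an exon of 50 bp or more on the other strand and 1 without.

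**Figure D1:**
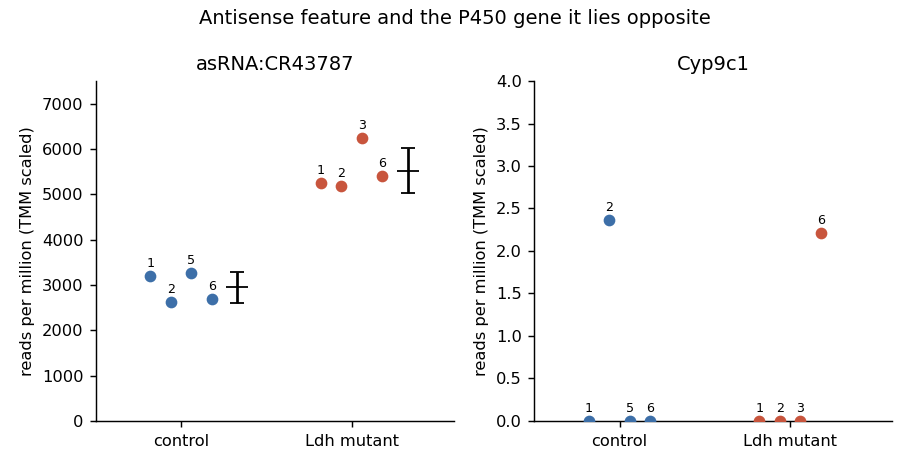
CPM (TMM scaled, vertical axis) of asRNA:CR43787 (left) and of Cyp9c1 on its other strand (right) in each control (blue) and Ldh mutant (red) library, with the replicate number above each point and, on the left, the mean and SD of 4 libraries as a black bar. The mutant libraries of the antisense feature sit between 5177 and 6247 and the controls between 2617 and 3270, whereas Cyp9c1 has 1 read in 1 library of each group.

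The P450 features themselves were read unevenly. Over the 8 libraries they had 17191 reads, of which Cyp317a1 alone held 45.9% and the 5 highest features 87.1%. No read at all fell on 22 features (26.2%, against 34.2% over all 17445 features). Given a floor of 3 reads over all libraries, this allows a level of up to 0.826 CPM for the feature. Since the strand setting is not given, it puts no bound on the RNA of the gene. Another 36 features had 1 to 7 reads. Genes that are well known in other settings were among them (named after their values were seen). Cyp6a2, an inducible enzyme linked to insecticide resistance, had 0 reads, and so did Cyp12d1-p and Cyp12d1-d, a pair of near-identical copies to which uniquely aligned reads are hard to assign. Cyp4g1, which works in oenocytes in the synthesis of cuticular hydrocarbons, had 2 reads. Cyp18a1, which inactivates ecdysone, had 5 reads in the mutants and 1 in the controls, too few to compare (ratio 4.66, exact 95% interval 0.522 to 220.5).

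The reads went with the presence of a gene on the other strand, a property the choice of members did not use. An exon of at least 50 bp lay opposite 19 of the 84 features, and these 19 held 97.1% of the P450 reads, with a median of 206 reads each against a median of 2 in the other 65. The same held beyond P450 genes, with a median of 102 reads in all placed features that have such an opposite exon and of 1 in those without. The split is thus not particular to P450 features. Whether the reads of these features came from the genes opposite them was not tested. The expression filter of edgeR was passed by 13 P450 features (15.5%, against 14.8% of all features), and 11 of these 13 had an opposite exon of 50 bp or more. The exceptions were Cyp12b2 and Cyp12a4. Over all placed features that passed, 73.1% had such an exon, against 20.6% of all placed features.

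**Figure D2:**
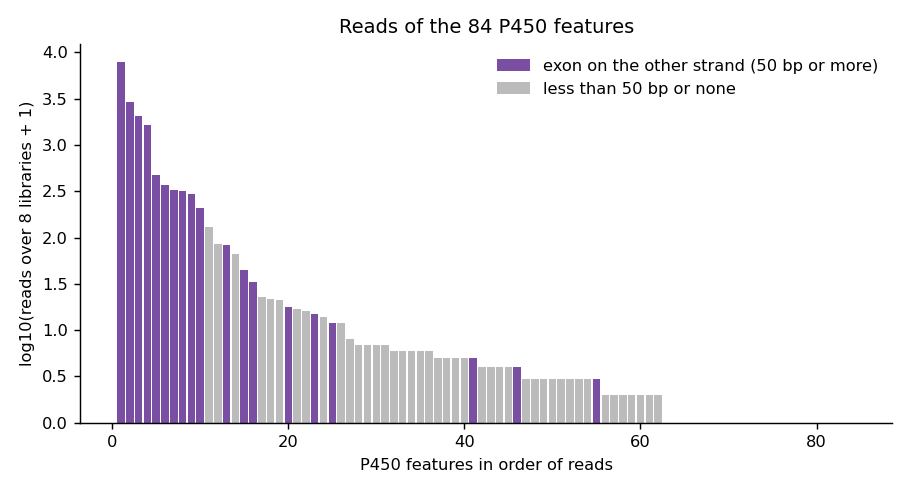
Reads over the 8 libraries for each of the 84 P450 features, as log10(reads + 1) on the vertical axis and in descending order on the horizontal axis, with features that have an exon of 50 bp or more on their other strand in purple and the rest in gray. The 10 highest features are all purple, and the last 22 have no read.

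Within these pairs the reads lay mostly on one side. For 17 P450 features the opposite gene was itself a row of the tables, and in 15 of them the sides differed by at least 5-fold in reads. The P450 feature held more reads in 7 and the opposite feature in 10. Cyp303a1, which is required for the development of external sensory organs, had 2055 reads against 6 of heix, a prenyltransferase gene. Cyp4e1 had 2920 reads against 9 of Mal-A1, a maltase gene of the midgut, although only 82 bases of exon overlap there. Cyp317a1 had 7884 reads against 587 of the adaptor gene Kank, and Cyp4aa1 had 1632 against 279 of the muscle gene Strn-Mlck. The reverse was seen for Cyp4s3, with 82 reads against 2024 of Rab3-GEF, an exchange factor gene of synaptic vesicle traffic. These counts are not of separate pairs, since asRNA:CR44690 is the opposite feature of both Cyp4d2 and Cyp4ae1. In 2 of the pairs both sides were P450 genes, and each of these entered the 17 from both sides. Cyp6a19 had 366 reads and Cyp6a9 opposite it had 3, and Cyp6g2 had 44 reads and Cyp6g1 opposite it had 14.

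**Figure D3:**
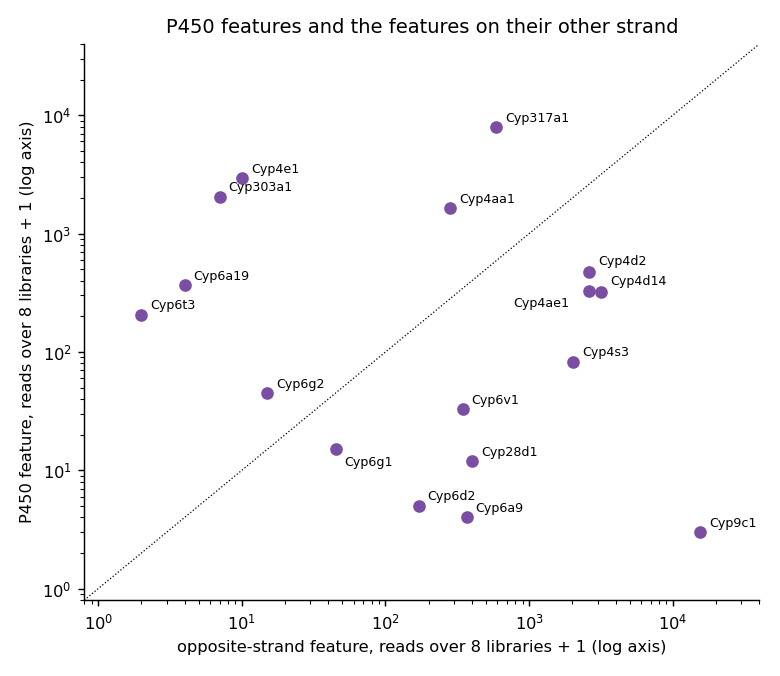
Reads over the 8 libraries plus 1, on log axes, of 17 P450 features (vertical) and of the feature on their other strand (horizontal), with equality as a dotted line. Cyp317a1, Cyp4e1, Cyp303a1 and Cyp4aa1 lie above the line, whereas Cyp9c1, with 2 reads against 15533, is farthest below it.

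The position in the genome did not even out these levels. P450 genes lie in tandem in Drosophila, and 45 of the 84 were within 10 kb of another, in 16 clusters. The largest, with 8 genes on 2R between 14871366 and 14903095, had 8260 reads, of which 95.5% fell on Cyp317a1 and 366 reads on Cyp6a19, while the other 6 genes (Cyp6a22, Cyp6a17, Cyp6a23, Cyp6a9, Cyp6a20 and Cyp6a8) had 0 to 4 each. In the cluster on 2R between 8439395 and 8449745, Cyp4e1 had 2920 reads and its neighbors Cyp4ad1 and Cyp4e2 had 5 and 7. The cluster on X between 2173415 and 2180998 was the only one in which all members passed the filter, with 319 reads for Cyp4d14, 474 for Cyp4d2 and 325 for Cyp4ae1. All 3 lie under abundant antisense features. No member passed in 10 of the 16 clusters.

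Levels of the features per length of their own exons ran from Cyp317a1 down over more than an order of magnitude. With the strand setting not given, this order is not a ranking of P450 mRNA. Cyp317a1 had 533 ± 45.7 CPM per kilobase of exon (SD, n = 8) and Cyp4e1 452 ± 100. These do not separate beyond their spread. Cyp4aa1 (212 ± 23.2) and Cyp303a1 (204 ± 37.9) followed as a pair that also overlap. Cyp4d2, Cyp4d14, Cyp6a19 and Cyp4ae1 lay between 49.3 and 52.9 on the same scale, and Cyp4s3 was lowest of the tested features at 9.52 ± 4.43.

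None of the 13 tested P450 features was called between Ldh mutants and controls (0 of 13, against 3.17% of all features tested). This was so with edgeR (lowest adjusted p = 0.410, for Cyp4d2), with DESeq2 (lowest 0.767) and with limma-voom (lowest 0.406). None had an unadjusted p under 0.05 in any of these, against 15.4% of all features with edgeR. Of the 13, 4 had a fitted value above 0 and 9 below. Their median log2 fold change was -0.10, beside 0.01 over all features tested, and single values ran from -0.55 to 0.76. In 9 of the 13, the 95% interval lay within a 2-fold change in either direction, so that larger changes of those features lie outside it. For Cyp6a19, Cyp4s3, Cyp12b2 and Cyp12a4 the intervals were wider.

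**Figure D4:**
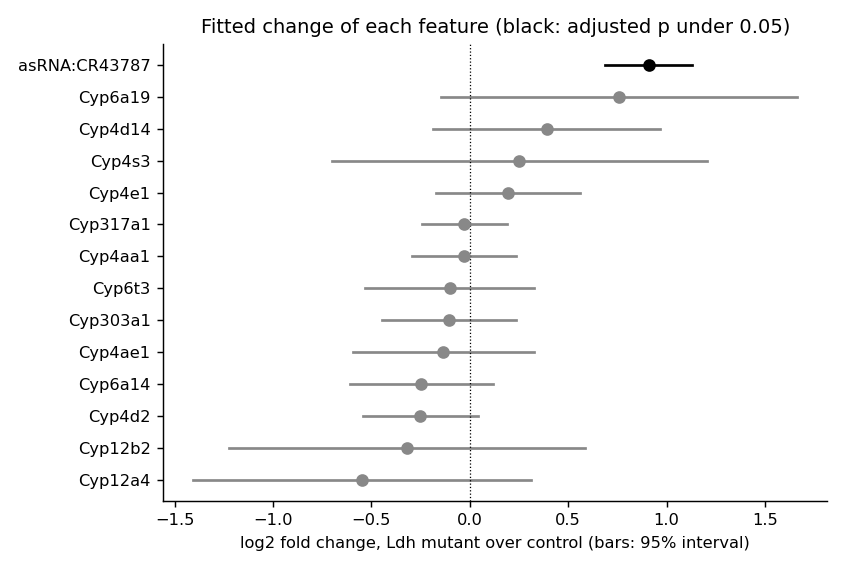
Log2 fold change of Ldh mutants over controls (horizontal axis) with its 95% interval for the 13 tested P450 features (gray) and asRNA:CR43787 (black, adjusted p under 0.05). The interval of asRNA:CR43787 runs from 0.69 to 1.13 and those of all 13 P450 features include 0.

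In the Cyp4 family, 6 of 22 features were tested. Cyp4e1 (FBgn0015034; 2R, 8447451 to 8449745) had 318, 541, 333 and 397 reads in the mutants and 404, 296, 414 and 217 in the controls. The groups overlapped, at 854 ± 174 and 749 ± 189 CPM (SD, n = 4 each; log2 fold change 0.19, SE 0.17). Cyp4aa1 had 171, 211, 240 and 198 reads in the mutants and 207, 190, 275 and 140 in the controls, or 442 ± 36.4 and 452 ± 64.7 CPM. Its interval of 0.815 to 1.18-fold was among the narrowest.

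Cyp4d2, on X, had 54, 60, 55 and 51 reads in the mutants and 58, 64, 84 and 48 in the controls. Its level of 119 ± 7.996 against 142 ± 11.2 CPM (SD, n = 4 each) gave a log2 fold change of -0.25 with an SE of 0.14 (adjusted p = 0.410 with edgeR), and the highest mutant library, at 130 CPM, overlapped the lowest control, at 125.5. Nearly all of Cyp4d2, 2436 of 2467 exonic bases, lies opposite asRNA:CR44690, which also covers 1608 bases of Cyp4ae1. That antisense feature had 280, 375, 461 and 390 reads in the mutants and 258, 264, 346 and 225 in the controls. Scaled to the library, its groups did not overlap (810 ± 121 against 614 ± 26.7 CPM), as was the case for 5.9% of all features with at least 8 reads, and its log2 fold change of 0.40 (SE 0.12) was not called (edgeR adjusted p = 0.0832). The antisense feature and Cyp4d2 thus had fitted values of opposite sign, neither of them called, and with the reads of both strands summed the value for Cyp4d2 was 0.30 (edgeR adjusted p = 0.165).

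The other Cyp4 features varied more among libraries. Cyp4ae1 had 32, 34, 52 and 40 reads in the mutants and 46, 25, 54 and 42 in the controls (log2 fold change -0.13, SE 0.21). Cyp4d14, which lies opposite asRNA:CR45479, had 25, 35, 70 and 55 reads against 34, 30, 33 and 37 (0.39, SE 0.27). In Cyp4d14 the mutants both reached above and fell within the range of the controls, and asRNA:CR45479 itself, with 278 to 557 reads per library, had a log2 fold change of -0.04 (SE 0.15). Cyp4s3 had 12, 13, 14 and 6 reads in the mutants and 10, 7, 19 and 1 in the controls. Its value was 0.25 (SE 0.44), the least precise of the 13. Summed over all Cyp4 features, the level was 1640 ± 137 CPM in mutants against 1549 ± 271 in controls (SD, n = 4 each), 50.3% of it from Cyp4e1 by reads, and the groups overlapped.

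**Figure D5:**
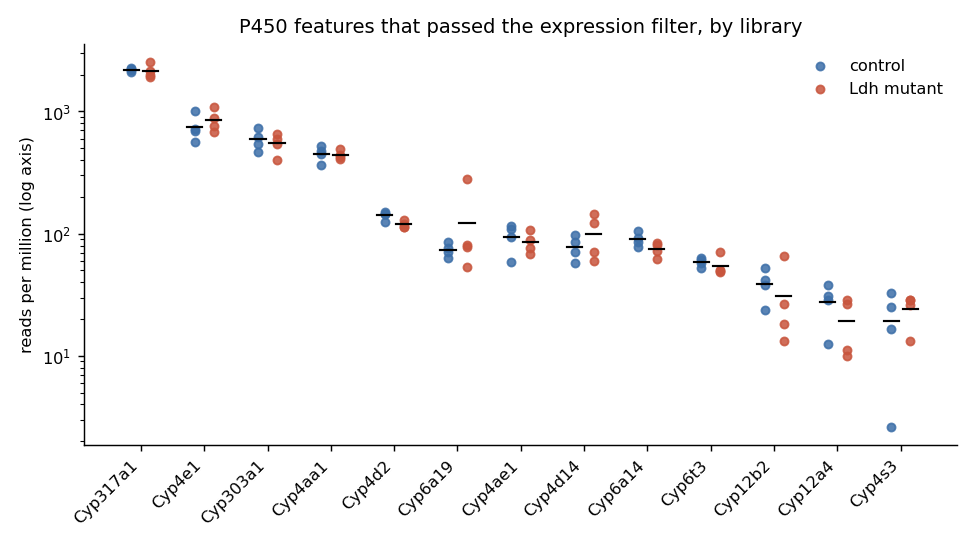
CPM on a log axis for the 13 P450 features that passed the expression filter, in each control (blue) and Ldh mutant (red) library, with group means as black lines. The groups overlap for every feature, and the single high mutant point of Cyp6a19, at 282, is replicate 3.

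In the Cyp6 family, 3 of 24 features were tested. Cyp6a19 (FBgn0033979; 2R, 14877786 to 14879752) had 22, 40, 137 and 35 reads in the mutants and 34, 27, 44 and 27 in the controls. Mutant replicate 3 stood far above all other libraries, and the remaining 3 mutants overlapped the controls. The fitted value was 0.76 on the log2 scale, with an SE of 0.42 and an adjusted p of 0.429 (edgeR), and without mutant replicate 3 it was -0.07 (adjusted p = 0.902). With no filter on low counts Cyp6a19 was called (log2 fold change 0.73, edgeR adjusted p = 0.0169), but with a filter of 1 CPM in 4 libraries it was not (log2 fold change 0.73, adjusted p = 0.457). Over all features tested, 28.7% had their highest mutant value in replicate 3, as did 6 of the 13 P450 features.

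Cyp6a14, opposite an annotated transposable element, had 30, 42, 39 and 28 reads in the mutants and 42, 36, 45 and 35 in the controls. Its level of 74.7 ± 9.86 against 89.9 ± 11.8 CPM (SD, n = 4 each) gave a log2 fold change of -0.25 (SE 0.17), and the groups overlapped. Cyp6t3, which has been linked to ecdysone synthesis in the prothoracic gland, had 20, 25, 24 and 32 reads against 21, 27, 35 and 22 (log2 fold change -0.10, SE 0.20). Its neighbors on 2R lay below the filter. Cyp6g1, known from resistance to DDT and neonicotinoids, had 1, 4, 0 and 2 reads in the mutants and 2, 1, 2 and 2 in the controls. Cyp6g2 had 1, 5, 21 and 6 against 4, 3, 3 and 1, again with the highest value in mutant replicate 3. The summed Cyp6 features came to 298 ± 127 CPM in mutants against 252 ± 14.2 in controls (SD, n = 4 each), with 486 in mutant replicate 3 and 209 to 249 in the other mutants.

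The Cyp12 family, which encodes mitochondrial enzymes, had 2 tested members of 7. Cyp12b2 had 11, 9, 32 and 6 reads in the mutants and 21, 16, 24 and 9 in the controls. Replicate 3 was again the highest mutant library, at 65.9 CPM against 13.3 to 26.5 in the others, while the controls ranged from 23.5 to 52.8. The log2 fold change was -0.32 (SE 0.42), and without mutant replicate 3 it was -1.03 (edgeR adjusted p = 0.0927). Cyp12a4, known for resistance to the insecticide lufenuron, had 12, 5, 13 and 5 reads against 5, 16, 18 and 11 (-0.55, SE 0.40). Its tandem neighbor Cyp12a5, below the filter, had 5, 3, 8 and 3 reads in the mutants and 19, 3, 14 and 11 in the controls. That ratio was 0.377 (exact 95% interval 0.209 to 0.655, counting error only), but the libraries of the groups overlapped (two-sided exact permutation test, p = 0.114, and 0.865 after adjustment over the 3903 features below the filter with at least 8 reads).

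The summed Cyp12 level was 60.4 ± 36.4 CPM in mutants against 93.4 ± 14.9 in controls (SD, n = 4 each), with overlap through mutant replicate 3 at 109. The other mutants were at 67.4, 34.2 and 31.0 and the controls at 113, 82.6, 96.8 and 81.1. Members of a family are not replicates, and no test was made of these sums.

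Among the families with other numbers, 2 of 25 features were tested. Cyp317a1 (FBgn0033982; 2R, 14898312 to 14903095) had 891, 987, 1229 and 872 reads in the mutants and 892, 965, 1216 and 832 in the controls. The levels were 2147 ± 271 and 2199 ± 77.0 CPM (SD, n = 4 each), the groups overlapped, and the interval of the difference was the narrowest of the 13, at 0.844 to 1.14-fold. Kank, on its other strand, had a log2 fold change of 0.03 (SE 0.21). Cyp303a1 had 227, 295, 193 and 296 reads in the mutants and 186, 262, 316 and 280 in the controls, with a log2 fold change of -0.11 (SE 0.16).

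Below the filter lay 71 P450 features, with at most 66 reads. Of these, 13 had at least 8 reads and were compared by exact permutation of the libraries (two-sided), which can reach p = 0.0286 at the smallest. The lowest value was 0.0571, for Cyp6d5, with 4, 4, 1 and 4 reads in the mutants and 0, 0, 1 and 1 in the controls. Its adjusted p over the 3903 such features was 0.802. Cyp301a1, which is needed for the adult cuticle, had 2, 0, 2 and 0 reads against 2, 6, 7 and 1. Cyp9b1, the most read of the Cyp9 features, had 1, 1, 7 and 0 against 3, 0, 0 and 5, and no Cyp9 feature was tested. Cyp6v1, Cyp49a1, Cyp310a1 and the pseudogene Cyp6t2Psi had 16 to 32 reads in all. Of the 26 P450 features with at least 8 reads, none had groups without overlap, against 5.9% of all 6492 features with that many reads. For features below the filter this test could call no difference of any size, because groups without overlap reach at best p = 0.0286, which adjusts to 0.774 over the 3903 features (exact permutation). The adjusted values of Cyp6d5 and Cyp12a5 therefore show nothing either way.

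The remaining opposite-strand features that passed the filter were not called either. Rab3-GEF, opposite Cyp4s3, had 510 ± 85.01 CPM in mutants against 604.5 ± 61.4 in controls (SD, n = 4 each; log2 fold change -0.24, SE 0.13). The antisense feature asRNA:CR45466, opposite Cyp6v1, had a log2 fold change of 0.16 (SE 0.20), and nsr, opposite Cyp6d2, one of -0.67 (SE 0.34). CG7742, opposite Cyp28d1, was at -0.40 (SE 0.23) and Strn-Mlck at 0.04 (SE 0.26). Of the 4 antisense RNA features opposite P450 genes, asRNA:CR43787 was the only one called. Whether its change differed from that of the other 3 was not tested.

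Genes that work with P450 enzymes were read to differing degrees. All 6 genes of the redox partner list had reads, and 1 of them passed the filter, where 14.8% of all features did. This was Fdx1, a ferredoxin gene, with 18 to 43 reads per library and a log2 fold change of 0.10 (SE 0.25). Cyt-b5-r was placed in the list by its symbol, and a role with P450 enzymes was not checked. Below the filter, it had 5, 3, 6 and 6 reads in the mutants and 8, 7, 9 and 11 in the controls. Its scaled groups did not overlap, at 10.9 ± 3.31 CPM in mutants and 20.2 ± 6.02 CPM in controls (SD, n = 4 each), as was the case for 5.9% of all features with at least 8 reads. The ratio of reads was 0.533 (exact 95% interval 0.291 to 0.949, counting error only), and the exact permutation p was 0.0286, the smallest possible, or 0.774 adjusted. Cyt-b5 had 5 to 11 reads per library, with overlap. Cpr, the NADPH reductase of microsomal P450s, had 1 to 4 (named after its values were seen). Of the ecdysone P450s that carry other symbols, 5 of 6 were matched and 3 tested, and none was called: dib had 56 to 111 reads per library (0.15, SE 0.15), sad 7 to 16 (0.11, SE 0.31) and spo 8 to 21 (0.13, SE 0.28). All of these have a gene on the other strand, wit for dib, CG6962 for sad and l(3)psg2 for spo. The detoxification regulator cnc, opposite Irk1, had 43 to 72 reads (0.09, SE 0.15) and was the only tested one of 8 regulators, while Keap1, its inhibitor, had 1 to 5 (also named after its values were seen).

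Enzymes of the next step of detoxification, in which the product is joined to glutathione or a sugar, gave no call. Of 36 glutathione S-transferase features 4 were tested, among them GstE10 at 512 ± 68.6 CPM in mutants against 446 ± 79.1 in controls (SD, n = 4 each; log2 fold change 0.20, SE 0.14), and their median log2 fold change was 0.07. Of 35 UDP-glycosyltransferase features 2 were tested. Ugt49B1, opposite CG44245, had 1509 ± 99.3 against 1726 ± 147 CPM (-0.19, SE 0.10; edgeR adjusted p = 0.360), and Ugt36E1 had a log2 fold change of 0.10 (SE 0.15). The ABC transporter genes Mdr49 (opposite Sans) and Mdr50 were at 0.25 (SE 0.22) and 0.15 (SE 0.19). Across these 6 lists, 0 of 13 tested features were called with edgeR, against 3.17% of all features tested, and none had an unadjusted p under 0.05, against 15.4%.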

How the data were processed

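RNA-seq libraries of 4 Ldh mutant and 4 control samples were used. The files deposited by the authors hold raw read counts of FlyBase genes for each library, not normalized. Per the submitters' processing notes, reads were trimmed or aligned with tools that include Bowtie2 2.2.4, TopHat2 2.0.13 and Trimmomatic 0.32, and HTSeq 0.6.1p1, CASAVA and DESeq2 are also listed. The build, annotation, library kit and strand setting are not given in the sources used here. The 5 summary lines of each file were left out (65.1% to 77.2% of all counts in no feature, 21.2% to 33.7% not unique).

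Symbols and positions came from the Ensembl release 115 annotation of BDGP6 (17151 of 17445 features matched), which may differ from that used for counting. Counts were tested with edgeR 4.0.16 (R 4.3.3; filterByExpr, TMM, quasi-likelihood test without covariates), with Benjamini-Hochberg adjustment over all 2589 features. The SE is the log2 fold change divided by the root of F. CPM use the library total and TMM factor. Features below the filter were compared by exact permutation of log2(CPM + 1) over 70 splits. The pipeline was tested on simulated data. Libraries of the same genotype were not duplicates (chi-square of 1.80 to 13.7 for each degree of freedom).

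Alternatives were other scalings and filters, DESeq2 1.42.0, limma-voom (limma 3.58.1), robust estimation, a replicate block, summed strands, and leaving out each library. Named were all tested members, the opposite-strand features that passed, the 10 most read members below the filter, Cyp9c1 and Cyp18a1, with up to 3 genes of each pathway list. Members and lists were chosen with earlier results of these data known.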

Additional observations from a re-analysis of the deposited data

Results flagged for a closer look

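Dixon's criterion for a stray value was applied to the 4 libraries of a genotype. There were 64 such sets of CPM values, for P450 features and family sums. Among normally distributed values about 1 in 20 (3.2) would be picked, but this rate does not hold for sets of a few reads. The criterion picked out 7 sets, from which no excess over chance was read, and 6 of the 7 were mutant replicate 3. Cyp6a19 stood at 282 CPM there, where the other mutants ranged from 53.0 to 80.4, and the Cyp6 sum, which includes it, was 486 against 209 to 249. The Cyp9 sum was 18.5 against 2.22 to 4.81, and Cyp9b1, its most read member, 14.4 against 0 to 2.41. Cyp6t2Psi was also at 14.4 CPM, which is 7 reads, against 2.01 to 2.41. Cyp4d1 was at 8.24, or 4 reads, against 0 in the other mutants. The remaining one was Cyp6t3 in mutant replicate 6, at 70.9 against 48.1 to 50.2. The sums and their members are not independent, and several rest on a few reads.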

How the results depend on the processing

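The rise of asRNA:CR43787 was called under all 19 alternatives run, with log2 fold changes of 0.83 to 0.97 and adjusted p of 2.11e-14 to 0.00146. The count of called P450 features stayed at 0 except without a filter on low counts, where 1 was called (Cyp6a19, 0.73), and with the reads of both strands summed, where 1 was called (Cyp9c1, through asRNA:CR43787). The median over tested P450 features stayed below 0 (-0.15 to -0.02). All called features numbered 82 (40 higher and 42 lower in mutants, or 38 and 63 when scaled to library totals), 184 without a filter, 57 to 164 when a library was left out (164 without mutant replicate 3), and, on the 6 libraries that share a number, 138 with the replicate block and 118 without it. Deviations from the group mean hardly correlated between libraries of the same number (-0.11, 0.01 and -0.03 for numbers 1, 2 and 6). This cannot exclude pairing, since each mean includes a library without a shared number. On the 6 libraries that share a number, the block gave -0.025 for Cyp4d14 and -0.055 for Cyp6a19, and the fit without the block -0.000435 and -0.05. These libraries leave out mutant replicate 3 and control replicate 5. Leaving out only the former gave 0.147 for Cyp4d14, and leaving out only the latter gave 0.252. With strands summed, the sign also turned for Cyp4d2 (0.30), Cyp4ae1 (0.34), Cyp4d14 (-0.00304) and Cyp4s3 (-0.22). For each of these the opposite feature held far more reads, so the sum mostly carries the reads of the opposite feature. Cyp4d2 and Cyp4ae1 share the opposite feature asRNA:CR44690. Leaving out a library turned the sign of 5 uncalled values, within ranges of -0.12 to 0.043 for Cyp4aa1, -0.13 to 0.02 for Cyp317a1, -0.20 to 0.015 for Cyp303a1, -0.067 to 1.01 for Cyp6a19 and -0.06 to 0.70 for Cyp4s3. Without mutant replicate 3, the log2 ratio of the Cyp6 sums moved from 0.25 to -0.095. Low counts limit what can be said of the 71 features below the filter.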
